A study of Mus musculus with 2 samples.

Results

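The cells described here are alveolar macrophages that carried little or no Mmp12, the gene of macrophage metalloelastase, in the lungs of 2 mice. They were chosen cell by cell on their unique molecular identifiers (UMIs, each standing for 1 captured transcript). A cell was taken when at most 10% of its UMIs were mitochondrial and at least 4 of 10 genes (Ear2, Mrc1, Marco, Abcg1, Krt79, Plet1, Atp6v0d2, Car4, Lpl and Fabp1) had 1 UMI or more. It had to hold 0 UMIs of Pecam1, Cd79a and Lamp3, and Mmp12 had to make up less than 0.1% of its UMIs. This gave 1352 cells of 15453, of which 626 came from the control and 726 from the fibrosis library. Both libraries were single-cell RNA sequencing of whole-lung suspensions, prepared by the 10x Genomics droplet method (3′ chemistry, V2) from perfused, enzyme-digested lungs after lysis of red cells. The mice were C57Bl/6J males 3 months old that had received 100 µg of particles through the trachea 14 days earlier. The particles were titanium dioxide (TiO2), a dust used as a control, or crocidolite asbestos, a fibre that scars the lung. The labels list both particles for each library without assigning either one to a mouse, and the names control and fibrosis are theirs. Each group was 1 library from 1 mouse, so no difference below has a replicate check, no test between the groups was possible, and every 95% interval covers counting error only.

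Alveolar macrophages live on the air side of the alveolus, where they take up inhaled particles, dead cells and spent surfactant. In the healthy lung most of them descend from fetal monocytes and renew themselves locally. GM-CSF signals through its receptor (genes Csf2ra and Csf2rb) and the transcription factor PPARγ (Pparg) to set their lipid-handling identity, which includes Fabp1, Cidec, Abcg1 and the lectin receptor gene Siglecf. After injury monocytes can enter the alveolus and become alveolar macrophages, and in models of lung fibrosis Mmp12, Spp1 and Fn1 are known from such newly recruited cells.

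The control library held 8280 cells with 36632591 UMIs and the fibrosis library 7173 cells with 38090308 UMIs. The shallowest deposited cells had 1460 (control) and 1915 (fibrosis) UMIs, so very shallow cells were not in the files. The libraries shared 89 cell barcodes, and 1 barcode was shared between the chosen cells of the libraries. Depth was alike in the chosen cells, with medians of 4923 UMIs and 1867 genes for control cells and 5101 UMIs and 1900.5 genes for fibrosis cells. Median mitochondrial shares were 4.21% and 4.02%. Levels are given as CPM (counts per 1000000): a gene's UMIs summed over the chosen cells of a library, relative to all their UMIs, which numbered 3344809 for control and 4241777 for fibrosis cells.

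Among cells within the mitochondrial limit, the chosen macrophages were 7.80% of control cells (626 of 8026, exact Clopper-Pearson interval 7.22 to 8.41). Among fibrosis cells they were 10.5% (726 of 6945, 9.74 to 11.2). The share was 2.65 percentage points higher in the fibrosis library (1.72 to 3.60). When cells under 1915 UMIs were left out of both libraries, the difference was 1.21 points. A share in a suspension depends on every other cell type, and in the same libraries classical monocytes numbered 1598 and 379 cells.

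Of the cells that passed every other step, 4 of 630 control cells (0.635%, 0.173 to 1.62) and 170 of 896 fibrosis cells (19.0%, 16.5 to 21.7) were set aside for their Mmp12. Mmp12 was the criterion, so these values describe the choice. In the control library 617 of the 626 chosen cells had 0 Mmp12 UMIs, and in the fibrosis library 549 of 726 had 0. The threshold ran through a continuous range in the fibrosis library. There 42 chosen cells lay between 0.05% and 0.1% and 48 set-aside cells between 0.1% and 0.2%. The nearest cells on either side of the threshold held 0.0991% and 0.1001%. In the control library the highest chosen cell held 0.0563% and the lowest set-aside cell 0.101%.

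**Figure D1:**
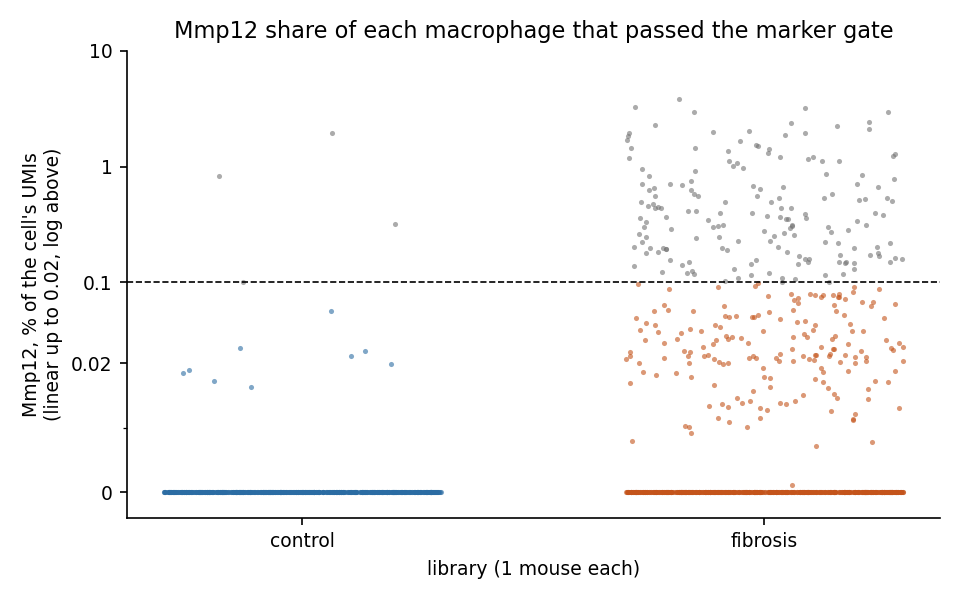
Each point is 1 macrophage that passed the marker, mitochondrial and exclusion steps, placed by library and by Mmp12 as a percentage of its UMIs (linear up to 0.02, logarithmic above), with the chosen cells in colour, the set-aside cells in grey and the 0.1% threshold dashed. Control cells lie almost all at 0, with 4 above the threshold, and fibrosis cells run without a gap from 0 through the threshold to 170 cells above it.

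The label was checked against genes the rule did not use. Siglecf, Itgax, Chil3, Ear1 and Pparg were present in both libraries. A list of 10 alveolar macrophage markers had 3 or more genes detected in 623 of 626 control and 722 of 726 fibrosis cells. Ear2, Marco, Krt79, Fabp1, Plet1 and Mrc1 in that list are rule genes. The rule therefore nearly fixed this outcome, and it is no check of the label. Siglecf was found in 45.8% of control and 43.1% of fibrosis cells. In B cells, which should lack it, the shares were 0.149% and 0.980%, at shallower medians of 1980 and 2611 UMIs. After each cell was thinned to 1000 UMIs the shares were 13.7% and 9.37% in the macrophages. In B cells they were 0.149% in the control and 0 of 306 in the fibrosis library, which allows a share of up to 0.980%. Defining genes of eosinophils, which also carry Siglecf, were nearly absent, with 3 of 4 markers at 0 in the control and all 4 at 0 in the fibrosis cells.

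The chosen cells carried a median of 8 of the 10 rule genes in both libraries. All 10 were detected in 75 control and 94 fibrosis cells, and exactly 4, the minimum, in 14 and 36. Outside the threshold, 65 control and 96 fibrosis cells met every other step with exactly 3 of the genes. The fibrosis library therefore held more cells near the edge of the rule, while 553 control and 591 fibrosis cells carried 7 genes or more.

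Transcripts of other lung cells were present in the chosen cells of both libraries. Markers of type 2 epithelial cells (AT2) summed to 1681 CPM for control and 2213 for fibrosis cells. Markers of club cells, a secretory cell of the airway, summed to 26164 and 26643 CPM, and 3 control and 6 fibrosis cells with at least 5% Scgb1a1, the club cell secretoglobin, held 85.2% and 88.8% of the Scgb1a1 UMIs. Interstitial macrophage markers summed to 60.4 CPM for control and 299 for fibrosis cells, with 3 or more of 8 detected in 5 and 25 cells. For neutrophil markers the sums were 1948 and 1407 CPM, and 1 control cell held 28.0% of its library's sum. Their part in the differences below was not tested, and several values carried by single cells are given beside the genes concerned.

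Of 10541 genes with at least 20 UMIs over both libraries, 413 (3.92%) were at least 2-fold higher in the fibrosis cells and 152 (1.44%) at least 2-fold lower, with a median log2 ratio over all genes of -0.04. The count of higher genes depended on the cells taken. It was 225 in cells with at least 7 rule genes and 234 when the gate was run on cells thinned to 1000 UMIs. Without cells holding 3 markers of another class it was 242. Those classes were type 1 epithelial, club, ciliated, B, T, NK, endothelial, fibroblast and mesothelial cells and neutrophils. Markers of AT2 cells, interstitial macrophages, monocytes and dendritic cells were not counted for it. Of the 413, 108 were detected in at least 5% and 37 in at least 20% of fibrosis cells, and in 13 genes 1 fibrosis cell held at least 50% of the UMIs. For the 152 genes, 52 were detected in at least 5% and 11 in at least 20% of control cells, and in 12 genes 1 control cell held at least 50% of the UMIs. The matching counts over all 10541 genes are not given here, so these have no baseline. The same ratio was computed in 6 classes of other lung cells (B, T, NK, endothelial and AT2 cells and classical monocytes), and its median over those classes is given below as the reference ratio. After it was subtracted, 355 genes (3.37%) were at least 2-fold higher and 306 (2.90%) lower. Of the 10541 genes 9580 had a reference ratio, and the others entered these subtracted counts as they were. For some genes that macrophages make in quantity, such as Chil3 and Spp1, B cells held only low levels. A reference ratio can thus rest on few UMIs per cell in such classes. Classical monocytes, for which Chil3 is also a marker, are among the 6 classes.

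None of the 10 rule genes passed 2-fold in either direction (3.92% of all genes higher, 1.44% lower), and their median log2 ratio was -0.15. After subtraction of the reference ratio 1 was at least 2-fold higher and 4 lower (3.37% and 2.90% of all genes), with a median of -0.73. Because the rule required these genes, their levels are a description of the chosen cells. The most abundant was Ear2 (a ribonuclease gene of the eosinophil-associated family), at 2739 CPM in the control (2684 to 2796) and 2392 in the fibrosis cells (2345 to 2439), a log2 ratio of -0.20. Lpl, which encodes lipoprotein lipase, stood at 1669 and 1776 CPM, and Abcg1, a cholesterol exporter, at 1132 and 955. Marco, a scavenger receptor gene, was at 275 and 217 CPM, and Krt79, a keratin gene used as a marker of these cells, at 361 and 303. The mannose receptor gene Mrc1 was at 614 and 691 CPM, Plet1 at 900 and 836, and Atp6v0d2, a subunit gene of the proton pump, at 600 and 580. The 2 rule genes furthest from a ratio of 1 lay on opposite sides of it. Fabp1 (fatty acid binding protein 1, chr6:71199827-71205023 on GRCm38, plus strand) was at 740 CPM in the control (711 to 770) and 428 in the fibrosis cells (408 to 448), a log2 ratio of -0.79 (-0.88 to -0.70). Fabp1 was detected in 73.8% of control and 59.9% of fibrosis cells, and in 0.894% and 1.31% of B cells. Thinned to 1000 UMIs, the macrophage shares were 41.4% and 28.1%. Car4, a carbonic anhydrase gene, was higher in the fibrosis cells, at 315 CPM (296 to 334) and 519 CPM (498 to 541), a log2 ratio of 0.72, against a reference ratio of -0.55.

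Of 22 further identity genes of alveolar macrophages, 1 passed 2-fold upward and none downward, against 3.92% and 1.44% of all genes. The median log2 ratio was 0.00, but the list was split between genes with higher and genes with lower levels. After subtraction none was higher and 1 lower, against 3.37% and 2.90% of all genes, with a median of -0.39. The gene past 2-fold was Chil3 (chr3:106147554-106167564, minus strand), a chitinase-like protein that these cells secrete. Chil3 was at 13569 CPM in the control (13445 to 13695) and 29108 in the fibrosis cells (28946 to 29271). The log2 ratio was 1.10 (1.09 to 1.12), and the reference ratio was 0.98. B cells held much lower levels, at 263 CPM in the control and 362 CPM in the fibrosis library. Levels in classical monocytes, a reference class for which Chil3 is also a marker, are not given here. Single cells showed a broad displacement. The median level per cell was 13014 CPM for control and 20489 for fibrosis cells, and 45.7% of fibrosis cells lay above the level exceeded by 10.1% of control cells. Without its 5 highest cells in each library the log2 ratio of Chil3 was 1.06.

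Fabp5, a second fatty acid binding protein gene, was at 875 CPM (844 to 908) and 1542 CPM (1505 to 1580), a log2 ratio of 0.82. Ctsk, which encodes the collagen-cutting protease cathepsin K, was at 367 (347 to 388) and 663 CPM (639 to 688), a log2 ratio of 0.85 with a reference ratio of 1.52. Genes lower in the fibrosis cells included Ear1 (chr14:43818765-43875517, minus strand), at 1082 CPM (1047 to 1118) and 654 CPM (630 to 679), a log2 ratio of -0.73. Cidec, a lipid droplet protein gene, stood at 207 and 122 CPM, a log2 ratio of -0.77. Serpinb1a, a protease inhibitor gene, was at 191 and 116 CPM, a log2 ratio of -0.72. The Ear genes are near-identical copies, and Chil3 has a close copy in Chil4, so reads could have been split between relatives by the counting. Genes of the GM-CSF axis differed less. The receptor genes Csf2ra (203 and 206 CPM) and Csf2rb (250 and 250 CPM) had overlapping intervals. Pparg was at 92.4 CPM (82.4 to 103) and 78.0 CPM (69.9 to 86.9). Itgax, the integrin gene for CD11c, was at 352 and 361 CPM. Siglecf was at 131 CPM (119 to 143) and 108 CPM (98.3 to 118).

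**Figure D2:**
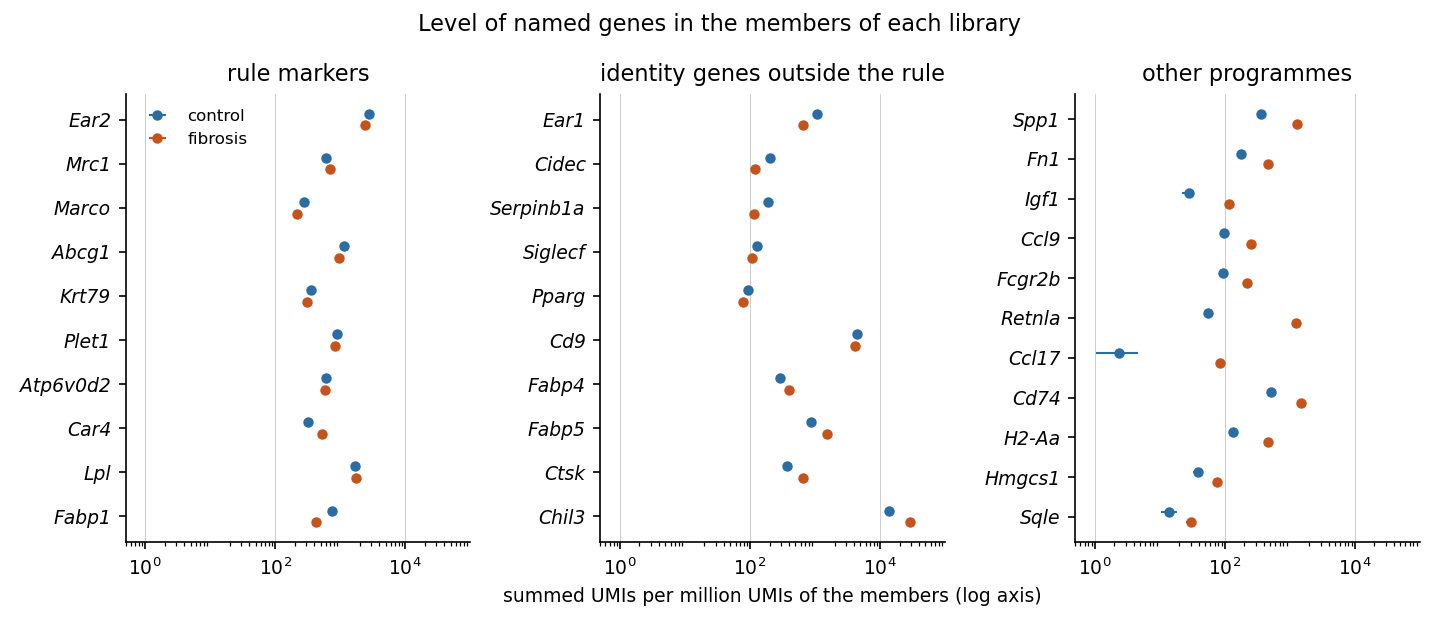
Level in CPM (logarithmic axis) of the 10 rule genes, of 10 identity genes outside the rule and of 11 genes of other programmes in the chosen cells of the control (blue) and fibrosis (orange) libraries, with exact Poisson 95% intervals that are mostly narrower than the points. The rule genes other than Fabp1 and Car4 lie close together in both libraries, Ear1, Cidec and Serpinb1a are lower and Chil3, Fabp5 and Ctsk higher in the fibrosis cells, and the genes of other programmes are higher there.

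A list of 25 genes known from monocyte-derived and scar-associated macrophages had 21 genes past 20 UMIs, of which 7 were at least 2-fold higher and 1 lower, with a median log2 ratio of 0.88. Over all genes the shares were 3.92% and 1.44% and the median -0.04. The list's reference median was 0.30 over 20 genes. After subtraction 7 were higher and 2 lower, against 3.37% and 2.90% of all genes, with a median of 0.38. The 7 genes included Spp1, Fn1, Arg1 and the complement genes C1qa, C1qb and C1qc, and the lower gene was the monocyte gene Ly6c2. Spp1 (osteopontin, chr5:104435118-104441050, plus strand) was at 367 CPM in the control (347 to 389) and 1303 in the fibrosis cells (1269 to 1338), a log2 ratio of 1.83. One fibrosis cell held 511 of the 5529 UMIs, and without the 5 highest cells of each library the log2 ratio was 1.46. Spp1 was also higher in the other classes of the fibrosis library, with a reference ratio of 2.91 at 4.01 and 23.3 CPM in B cells. Fn1 (fibronectin, chr1:71585520-71653200, minus strand) went against its reference. Its level was 181 CPM in the control (166 to 196) and 464 in the fibrosis cells (444 to 485), a log2 ratio of 1.36, where the reference ratio was -1.06. Fn1 was detected in 40.1% and 65.0% of the macrophages, and in 6.71% and 3.92% of B cells. The shares after thinning were 15.8% and 34.3%, against 3.28% and 1.63% in B cells.

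Some genes of other lists had a like pattern. Ccl9, a chemokine gene of myeloid cells, lay above its reference in the same way as Fn1, with 97.5 and 258 CPM, a log2 ratio of 1.40 and a reference ratio of -1.06. Fcgr2b, the inhibitory receptor for IgG, was at 92.7 (82.6 to 104) and 221 CPM (207 to 235), a log2 ratio of 1.25, with a reference ratio of 0.03. Igf1, a growth factor gene, was at 27.8 (22.4 to 34.1) and 116 CPM (106 to 126), a log2 ratio of 2.05 (1.74 to 2.39). It was detected in 10.9% of control and 31.3% of fibrosis cells, and no cell held more than 12 UMIs. Msr1, the scavenger receptor A gene, was at 8.67 and 20.5 CPM (29 and 87 UMIs). Csf1r, the receptor of M-CSF that the series title names, was at 75.6 CPM (66.6 to 85.6) and 82.0 CPM (73.6 to 91.1), a log2 ratio of 0.12 (-0.12 to 0.36). Its ligand Csf1 had 3 and 10 UMIs in the chosen cells. Of 15 genes of growth factors and their receptors 2 passed 2-fold upward and none downward (against 3.92% and 1.44% of all genes), Igf1 and Areg (an epidermal growth factor receptor ligand, 2 and 21 UMIs), with a median log2 ratio of 0.00. After subtraction 2 were higher and 2 lower, against 3.37% and 2.90% of all genes.

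Apoe and the complement genes came from few cells. Apoe, the apolipoprotein E gene, was at 154 and 296 CPM, a log2 ratio of 0.94, and 1 fibrosis cell held 263 of its 1255 UMIs. C1qb had 26 control and 327 fibrosis UMIs (7.77 and 77.1 CPM), and 61 fibrosis cells held at least 1. B cells, which should lack it, held 15.4 and 85.8 CPM. Members with 3 or more of C1qa, C1qb, C1qc, Pf4 and Ms4a7 numbered 4 among control and 20 among fibrosis cells (2.75%, 1.69 to 4.22), and the 20 held 80.1% of the fibrosis C1qb UMIs. After thinning, C1qb was detected in 3.17% of fibrosis macrophages and 2.61% of B cells. Without the 4 and the 20 cells, Apoe stood at 141 and 119 CPM, a log2 ratio of -0.24, and C1qb at 3.60 and 15.9 CPM. These cells carry genes of interstitial macrophages, which held 11983 CPM of Apoe and 3797 CPM of C1qb in the fibrosis library. Spp1, Fn1 and Igf1 depended less on them, with 1311, 466 and 105 CPM in the remaining fibrosis cells.

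Alternative activation is the response of macrophages to interleukin 4 and interleukin 13, which act through the transcription factor STAT6. Of 16 genes of that programme, 13 passed 20 UMIs, and 7 were at least 2-fold higher and none lower, against 3.92% and 1.44% of all genes. The median log2 ratio was 1.10. The 8 genes with a reference ratio had a median of 0.81 and a reference median of 0.97. The other genes of the 13 entered the subtraction at their raw ratio. Counted in that way, 5 of the 13 were 2-fold higher and 1 lower, against 3.37% and 2.90% of all genes. The 7 included Chil3, its close copy Chil4 (2 and 31 UMIs) and Igf1. The arginase gene Arg1 (chr10:24915221-24927484, minus strand) had 1 UMI in the control and 334 UMIs in 42 fibrosis cells, or 78.7 CPM (70.5 to 87.7), a log2 ratio of 7.46 (5.55 to 13.35). No cell held more than 43 of these UMIs, and B cells of the fibrosis library were at 1.06 CPM. Ccl17, a chemokine gene, had 8 control and 356 fibrosis UMIs (2.39 and 83.9 CPM), in 77 fibrosis cells, and 1 cell held 104. Mgl2, a lectin gene, had 4 and 113 UMIs, and was at 26.6 CPM in fibrosis macrophages and 42.4 CPM in B cells of that library.

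Retnla (resistin-like alpha, chr16:48842551-48844461, plus strand) was at 55.3 CPM in the control (47.6 to 63.9) and 1233 in the fibrosis cells (1200 to 1267), a log2 ratio of 4.47. The reference ratio was larger, at 5.81, and 1 fibrosis cell held 1931 of the 5231 UMIs. Retnla was detected in 56.6% of fibrosis macrophages and in 37.3% of B cells of that library. After thinning the shares were 17.9% and 16.3%, so that macrophages and B cells lay close together. Without the 5 highest cells of each library 15 control and 1133 fibrosis UMIs remained. Without the 3 control and 6 fibrosis cells with at least 5% Scgb1a1, Retnla was at 45.9 and 355 CPM, a log2 ratio of 2.95.

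Promoter sequences for this list are shown because Retnla and Ccl17 were among its genes furthest from a ratio of 1, and STAT6 dimers are known to bind the palindrome TTCNNNNGAA. RefSeq promoters (250 bases before to 50 after the start site, GRCm38.p6) were matched for 11 of the 16 genes. Of the 11, 4 (36.4%) held that motif in at least 1 promoter, against 2164 of 27025 genes (8.01%) over all RefSeq promoters. The 4 were Retnla, Ccl17, Pdcd1lg2 and Clec7a, and Clec7a had no level in this report. The matched promoters of Mgl2, Chil4, Igf1 and Chil3, which were also at least 2-fold higher, held no such motif. No promoter was matched for Arg1. The motif reads the same on both strands. The bases before the start are given 5′ to 3′ on the plus strand with the motif in capitals, 145 bases before the RefSeq start site in Retnla (chr16:48842359-48842550) and 154 bases before it in Ccl17 (chr8:94810203-94810452). The Retnla stretch ends where the GENCODE gene begins. A match is a description of these letters only.
Retnla: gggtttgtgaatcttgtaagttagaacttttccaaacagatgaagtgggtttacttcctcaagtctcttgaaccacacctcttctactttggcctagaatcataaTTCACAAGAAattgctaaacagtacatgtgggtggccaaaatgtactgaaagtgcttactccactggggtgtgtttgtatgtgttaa
Ccl17: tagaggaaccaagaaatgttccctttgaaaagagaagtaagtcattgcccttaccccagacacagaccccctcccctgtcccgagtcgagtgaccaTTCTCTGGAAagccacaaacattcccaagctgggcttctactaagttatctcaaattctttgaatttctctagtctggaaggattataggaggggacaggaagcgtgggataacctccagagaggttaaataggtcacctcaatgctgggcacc

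Over all genes, those furthest above 1 by the smaller of the raw and the reference-subtracted ratio included Fbp1 (chr13:62864753-62888282, minus strand), which encodes fructose-bisphosphatase 1 of gluconeogenesis. Fbp1 had 0 UMIs in the control and 198 UMIs in 60 fibrosis cells, or 46.7 CPM, at least 52.0-fold higher with the control set at 3 UMIs. Rnase2a, a ribonuclease gene of the Ear family, had 1 control UMI and 135 UMIs in 41 fibrosis cells. Bex1 had 0 and 52 UMIs, the latter in 12 cells, at least 13.7-fold higher. Several other genes at the ends of this ranking were carried by 1 cell. In the fibrosis library 1 cell held 111 of 138 UMIs of Tff2, and in Muc5b 1 cell held 75 of 114, both of them genes of mucous cells of the airway. Dqx1, Fcgbp and Cxcl13 had 30, 25 and 34 fibrosis UMIs in 5 or 6 cells each. At the lower end, 1 control cell held 175 of 182 UMIs of the neutrophil granule gene Ngp, and 1 held 171 of 174 of Camp. Ltf (52 of 53 UMIs), Saa3 (20 of 30 UMIs) and Cxcl10 (252 of 253 UMIs) were likewise mostly in 1 control cell each. Adap2os, Vps25 and Zfp105 were lower without such a cell, at 26, 20 and 18 control and 7, 4 and 5 fibrosis UMIs, and Gm14306 was higher at 1 and 19 UMIs.

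The fibrosis cells with Arg1 and those with Fbp1 differed in what else they carried. Of the 42 cells with Arg1, 69.0% (52.9 to 82.4) held at least 1 Mmp12 UMI, against 21.6% of the other 684. Fabp1 was present in 11.9% of the cells with Arg1 (3.98 to 25.6) and 62.9% of the others, Siglecf in 23.8% and 44.3%, and C1qb in 35.7% and 6.73%. The 60 cells with Fbp1 also held Mmp12 more often, in 66.7% (53.3 to 78.3) against 20.6%. Their Fabp1 share was 45.0% against 61.3% and their Siglecf share 41.7% against 43.2%. Ccl17 was found in 31.7% of the cells with Fbp1 and 8.71% of the others, but in 9.52% of those with Arg1. C1qb was found in 6.67% of the cells with Fbp1. Both genes were present in 11 cells. Cells with either gene were deeper, with medians of 6245.5 and 6216 UMIs against 5060.5 and 5053 in the rest, and the part of depth in these shares was not tested.

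The chosen cells were next divided by Fabp1, a division made after the values had been seen and on a gene that the rule uses. Of the control cells 164 of 626 (26.2%, 22.8 to 29.8), and of the fibrosis cells 291 of 726 (40.1%, 36.5 to 43.8), had 0 Fabp1 UMIs. Cells with Fabp1 had a median of 9 rule genes and those without it 7 in both libraries. In the fibrosis library median depth was 5182 UMIs with and 5022 without Fabp1. There, Arg1 was at 2.41 CPM (6 UMIs) in cells with Fabp1 and 187 CPM (167 to 208) in cells without it, and Spp1 was at 586 and 2317 CPM. Cd74 was at 854 and 2330 CPM. Ccl17 was at 33.4 and 155 CPM, but 1 cell without Fabp1 held 104 of 273 UMIs, and leaving it out gave 96.5 CPM. Retnla was at 564 and 2179 CPM, with 600 of 1402 and 1931 of 3829 UMIs in 1 cell of each set. Without the 6 fibrosis cells with at least 5% Scgb1a1, 2 of them with Fabp1, Retnla was at 175 and 619 CPM. Ear1, by contrast, was at 852 and 374 CPM and Marco at 276 and 134. Chil3 was at 25345 CPM with and 34428 without Fabp1.

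Levels also differed between the libraries among cells with Fabp1. There, Chil3 was at 15088 CPM for control and 25345 for fibrosis cells, Fn1 at 176 and 378, Igf1 at 30.7 and 87.3, and Ear1 at 1261 and 852. Spp1 in those cells was at 388 and 586 CPM. In the control library several genes lay on the same side of the division as in the fibrosis library. Ear1 was at 1261 CPM with and 595 without Fabp1, Cidec at 229 and 146, Marco at 292 and 229, Cd74 at 458 and 638, and H2-Aa at 108 and 202. C1qb (9 and 17 UMIs) and Retnla (7 and 178 UMIs) were also higher without Fabp1, with 12 and 92 of these UMIs in 1 cell each. Spp1 and Chil3 lay on the other side, with Spp1 at 388 and 313 CPM and Chil3 at 15088 and 9459. The control cells without Fabp1 included all 3 control cells with at least 5% Scgb1a1, which held 17.9% of their UMIs. Without them Scgb1a1 was at 4129 CPM in place of 84060, Spp1 at 381, Chil3 at 11512, Ear1 at 725 and Marco at 279 CPM. The intervals of Spp1 and of Marco then overlapped between control cells with and without Fabp1. Control cells without Fabp1 were shallower, with a median of 4444.5 UMIs against 5006.5.

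**Figure D3:**
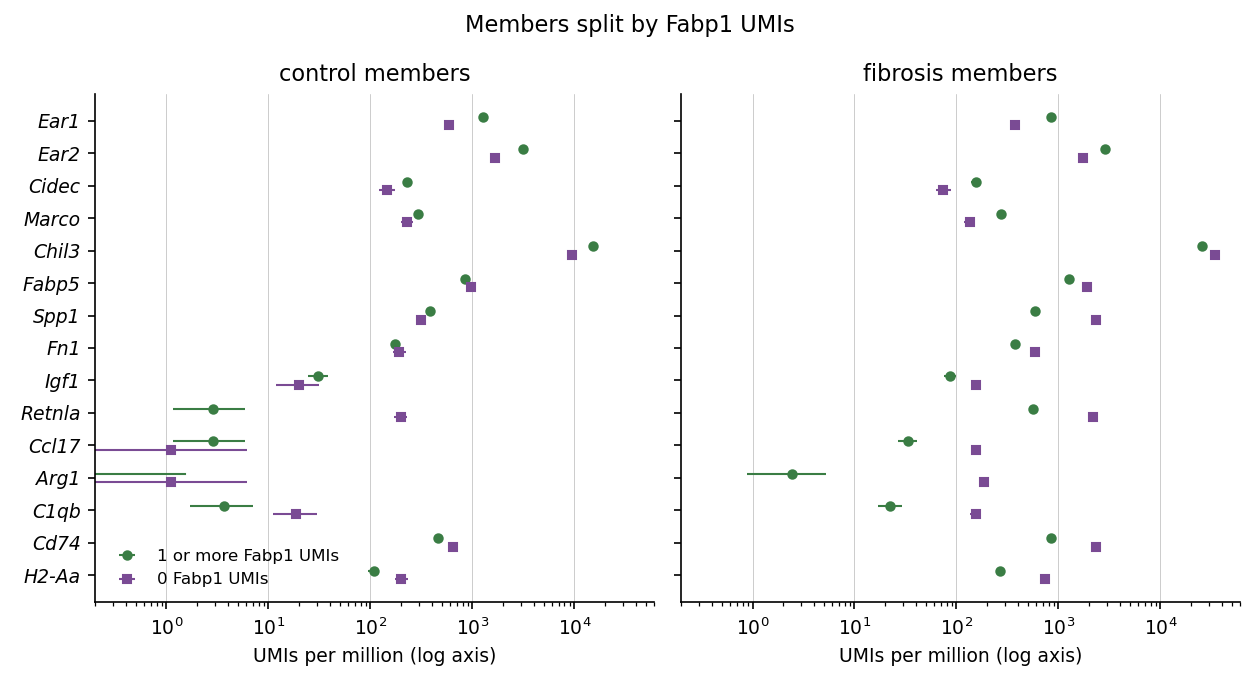
Level in CPM (logarithmic axis) of 15 genes in chosen cells with 1 or more Fabp1 UMIs (circles) and with 0 (squares), control on the left and fibrosis on the right, with exact Poisson 95% intervals. A line with no symbol marks a sum of 0. In the fibrosis library Spp1, Retnla, Ccl17, Arg1, C1qb, Cd74 and H2-Aa lie higher in cells without Fabp1 and Ear1, Ear2, Cidec and Marco lower, while in the control library Cd74, H2-Aa, Retnla, Ear1, Cidec and Marco lie on the same sides and Spp1 and Chil3 lie higher in cells with Fabp1.

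Of 20 genes of cholesterol and fatty acid synthesis, all passed 20 UMIs, 18 had a log2 ratio above 0, 3 were 2-fold higher and none was 2-fold lower, against 3.92% and 1.44% of all genes. The median log2 ratio was 0.65. After subtraction of the reference ratio, which 19 of them had, 12 were above 0, 1 was 2-fold higher (3.37% of all genes) and the median was 0.19. Hmgcs1, the cholesterol pathway's HMG-CoA synthase gene, was at 38.9 CPM (32.5 to 46.2) and 75.9 CPM (67.8 to 84.7), a log2 ratio of 0.96 (0.67 to 1.27) with a reference ratio of 0.25. Sqle, squalene epoxidase, was at 14.1 and 30.6 CPM, and Lss, which closes the sterol rings, at 4.48 and 10.4 CPM (15 and 44 UMIs). Scd1, a desaturase of fatty acids, was at 87.3 and 185 CPM, a log2 ratio of 1.08 with a reference ratio of 1.26. Srebf1 was one of the 2 genes below 0, at 41.9 and 33.9 CPM. By contrast, 21 genes of lipid uptake, storage and efflux had a median log2 ratio of -0.03, with 1 gene past 2-fold.

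The promoter of Hmgcs1 is shown because sterol synthesis genes are known to be switched on together by SREBP factors at sterol regulatory elements, often beside the factor NF-Y. The letters TCACNCCAC, searched on both strands, were found in 1 of the 12 genes of the list with a RefSeq promoter (8.33%) and in 388 of 27025 genes overall (1.44%). The NF-Y box CCAAT, searched likewise, was found in 10 of the 12 (83.3%) and in 11096 genes overall (41.1%). In Hmgcs1 the sterol element, in capitals, begins 137 bases before the start site, in chr13:119690101-119690350 on the plus strand of GRCm38.p6, and overlaps no CCAAT.
Hmgcs1: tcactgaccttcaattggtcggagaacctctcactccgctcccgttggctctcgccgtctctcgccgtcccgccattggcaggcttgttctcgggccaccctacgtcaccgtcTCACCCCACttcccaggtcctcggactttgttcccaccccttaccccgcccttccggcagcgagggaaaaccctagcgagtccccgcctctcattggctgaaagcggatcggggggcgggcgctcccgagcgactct

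MHC class II genes, which present antigen to CD4 T cells, were higher by median in the fibrosis cells. Their median reference ratio was also above 0, though B cells, a reference class, held less Cd74 in the fibrosis library. Of 10 genes, 4 passed 2-fold upward and none downward, against 3.92% and 1.44% of all genes, and after subtraction of the reference ratio none passed in either direction. The median log2 ratio was 0.61 (1.53 over genes with at least 50 UMIs), with a reference median of 0.79 over 9 genes. H2-Aa was at 133 CPM (121 to 146) in the control and 464 CPM (443 to 485) in the fibrosis cells, a log2 ratio of 1.80 against a reference ratio of 1.37. Cd74, the invariant chain, was at 506 and 1466 CPM, a log2 ratio of 1.53 against 1.24. The 20 cells rich in C1q genes held 22.4% of the fibrosis Cd74 UMIs. Without them Cd74 was at 1179 CPM, against 487 CPM in the control. B cells, which make these genes, held 14505 and 11830 CPM of Cd74, and 74.2% of fibrosis macrophages against 48.4% of control ones had at least 1 Cd74 UMI. The regulator gene Ciita had 9 and 11 UMIs.

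For the lysosomal and iron genes that follow, the shares over all genes were 3.92% at least 2-fold higher and 1.44% lower. Among 25 lysosomal genes none passed 2-fold in either direction, and the median log2 ratio was 0.08 with a reference median of -0.05. Lgmn, the protease legumain, was at 161 CPM (148 to 175) and 297 CPM (281 to 314), a log2 ratio of 0.88 with a reference ratio of 0.09. Psap, the prosaposin gene, was at 2859 and 3675 CPM, a log2 ratio of 0.36, and Ctsl, cathepsin L, at 233 and 340 CPM, a log2 ratio of 0.55. The abundant Ctsd, cathepsin D, differed less, at 3275 and 3504 CPM. Of 19 genes of iron, haem and oxidant defence, 1 passed 2-fold upward (the transferrin receptor gene Tfrc, 16 and 44 UMIs) and none downward. Fth1, ferritin heavy chain, was at 15381 and 16590 CPM. Hmox1, haem oxygenase 1, was at 156 and 113 CPM, with 107 of 522 control UMIs in 1 cell, and it was detected in 34.5% and 41.3% of cells.

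Scavenger and efferocytosis receptors had a median log2 ratio of -0.16 over 17 genes. Of these, 2 passed 2-fold upward (Fcgr2b and Msr1) and none downward, against 3.92% and 1.44% of all genes. Axl, a receptor for dying cells, was at 489 and 414 CPM and Mertk, its relative, at 145 and 154. In the list of 23 transcription factors 2 passed 2-fold upward (3.92% of all genes) and none downward (1.44%), among them Irf4 at 5 and 28 UMIs. Egr2 was at 26.0 and 47.2 CPM, a log2 ratio of 0.85, and Spi1, which encodes the myeloid regulator PU.1, at 487 and 380. Of 17 genes of glycolysis, 1 passed 2-fold upward (3.92% of all genes) and none downward (1.44%). It was Pgk1, at 27 and 165 UMIs, and its reference ratio was 2.42. Eno1 and Pgam1, both glycolytic enzyme genes, had log2 ratios of 0.69 and 0.63 with reference ratios of 0.20 and -0.22, and Gapdh had -0.33 with -0.35.

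Of 14 chemokine and cytokine genes past 20 UMIs, 3 were at least 2-fold higher (Ccl17, Ccl9 and Cxcl16) and 2 lower (Cxcl10 and Ccl4). Over all genes the shares were 3.92% and 1.44%. Ccl6 was the most abundant, at 5864 and 7208 CPM. Il1b was at 30.8 and 44.1 CPM, a log2 ratio of 0.51 with a reference ratio of -0.79, and Tnf at 28.1 and 20.5 CPM. For Il18, an inflammasome cytokine gene, the levels were 571 and 439 CPM, a log2 ratio of -0.38 with a reference ratio of -0.71. Ccl4 rested on 1 control cell with 58 of 70 UMIs. Of 14 interferon-stimulated genes 3 were 2-fold lower, Rsad2, Ifit1 and Irf7, against 1.44% of all genes. The median was -0.32 with a reference median of -0.41 over 13 genes. After subtraction 1 was higher and 2 lower, against 3.37% and 2.90% of all genes. In Rsad2 and Ifit1 1 control cell held 42 of 49 and 35 of 36 UMIs. Among 20 immediate-early and heat shock genes 2 were 2-fold lower and none higher, against 1.44% and 3.92% of all genes. The 2 were Hspa1a and Hspa1b, near-identical genes with 45 of 55 and 73 of 86 control UMIs in 1 cell. Hspa8, a constitutive chaperone gene, was at 1307 and 920 CPM, a log2 ratio of -0.51 with a reference ratio of -0.38.

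**Figure D4:**
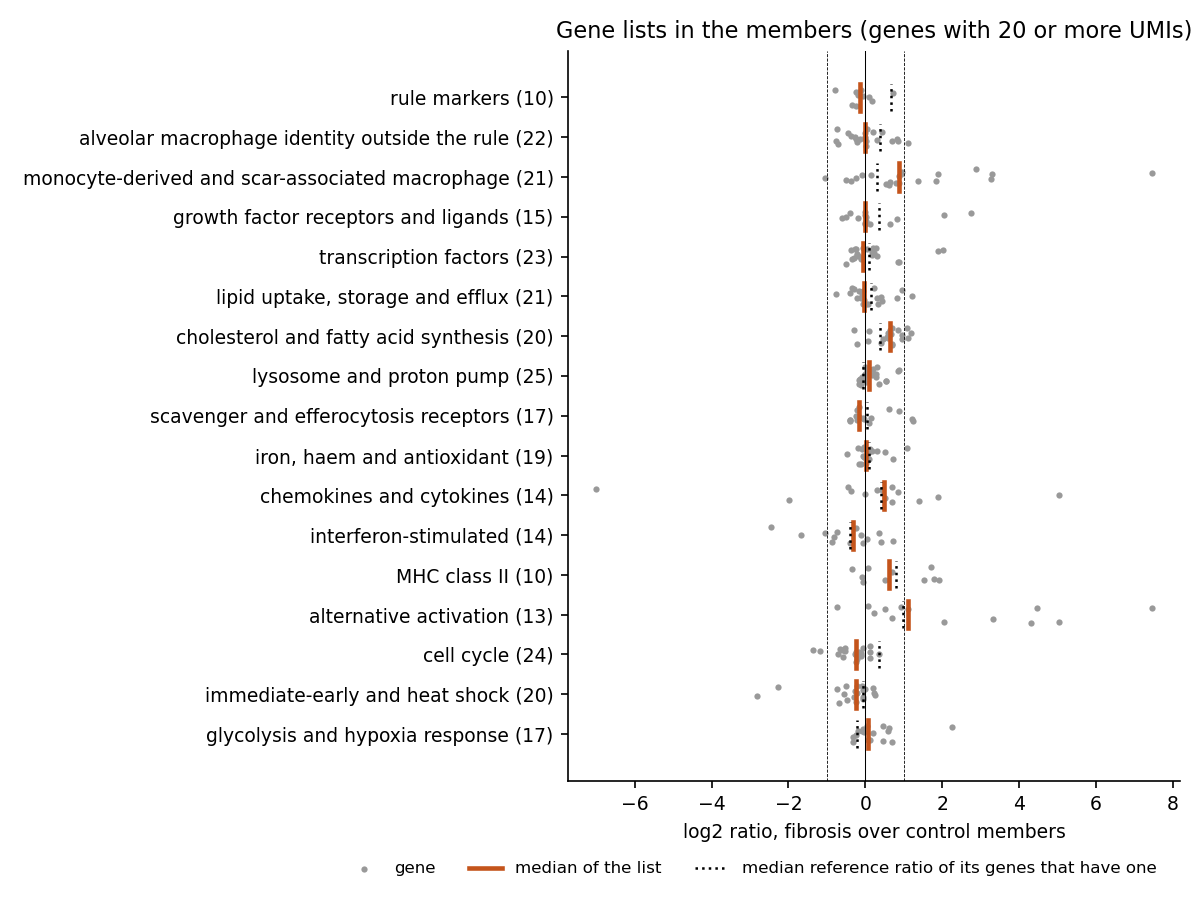
Log2 ratio of fibrosis over control chosen cells for each gene with 20 or more UMIs (grey points) in 17 gene lists, with the number of genes in brackets, the median of each list as an orange bar and the median reference ratio, over those of its genes that have one, dotted. Medians of alternative activation, monocyte-derived, cholesterol synthesis and MHC class II lists lie above 0.5. The dotted median lies above the orange one for MHC class II and below it for alternative activation, where it covers 8 of 13 genes. Over those 8 genes the median of the chosen cells was 0.81 and the reference median was higher, at 0.97.

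Cycling macrophages were present in both libraries. A cell was counted as cycling with at least 3 of 12 mitotic genes detected, which held for 35 of 626 control cells (5.59%, 3.92 to 7.69) and 46 of 726 fibrosis cells (6.34%, 4.68 to 8.36). In B cells the shares were 0.745% and 1.31%. After thinning to 1000 UMIs the order was the other way, with 3.35% (2.09 to 5.08) and 2.34% (1.37 to 3.72), and the intervals overlapped on both scales. Interstitial macrophages of the fibrosis library had 4 of 334 cycling cells. Of 24 cell cycle genes 2 were at least 2-fold lower in the fibrosis library (Plk1, 43 and 21 UMIs, and Cdc20, 36 and 20), against 1.44% of all genes, and the median log2 ratio was -0.23. After subtraction of the reference ratio, which 21 of the 24 had, 10 were at least 2-fold lower, with a median of -0.61. Over all genes 2.90% were lower after subtraction. With the cycling cells left out, the unsubtracted median of the list was 0.36. Cycling control cells held less Ear2 than the other control cells (1612 and 2837 CPM) and less Fabp1 (380 and 771 CPM). In the fibrosis library the same comparison gave 1592 and 2460 CPM for Ear2 and 228 and 445 CPM for Fabp1. Chil3 was at 14655 CPM in cycling and 13476 CPM in other control cells, and at 29363 and 29086 CPM in the fibrosis library. Cycling cells were deeper, with medians of 7400 and 6677 UMIs against 4776 and 5057.5, and the part of depth was not tested.

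The chosen fibrosis cells were compared with the 170 cells of the same library set aside for Mmp12, which differ from them by the rule. Of 9869 genes with at least 20 UMIs over both sets, 404 (4.09%) were at least 2-fold higher in the set-aside cells and 843 (8.54%) at least 2-fold lower. Of 23 monocyte-derived genes 16 were 2-fold higher and none lower, with a median log2 ratio of 1.49. The lysosomal list had 7 of 25 higher and a median of 0.53, where between libraries none had passed. Cholesterol synthesis had none of 20 higher and a median of 0.03, and MHC class II none of 9 higher and a median of 0.19. Chil3 was at 63120 CPM in the set-aside and 29108 in the chosen cells, with medians of 64668 and 20489 CPM per cell. Fabp1 was lower in the set-aside cells, at 80.9 CPM (64.9 to 99.5), as was Marco at 41.8 CPM (30.6 to 55.7). Ear2 differed little, at 2491 and 2392 CPM. Il18 was at 116 CPM in the set-aside and 439 in the chosen cells. Cd36, a receptor for oxidized lipid, was at 830 CPM in the set-aside cells and 251 in the chosen ones, and Ccl24 had 153 and 3 UMIs.

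Within the chosen fibrosis cells the 177 with at least 1 Mmp12 UMI lay between the others and the set-aside cells for several genes. All of these sets are cut on Mmp12, the gene of the rule, so their order is a description of that cut. Their depths were not compared, and the part of depth was not tested. Chil3 was at 23037 CPM in the 549 cells with 0 Mmp12 UMIs and 44410 CPM in the 177, Fn1 at 392 and 648, Ear1 at 785 and 325, and Fabp1 at 510 and 220. Arg1 was at 11.5 CPM in the cells with 0 Mmp12 UMIs and 248 CPM in the others. In the 549 cells, which were picked on Mmp12, levels were also unlike those over all chosen control cells. Chil3 was at 23037 against 13569 CPM, Fn1 at 392 against 181 CPM and Ear1 at 785 against 1082 CPM.

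**Figure D5:**
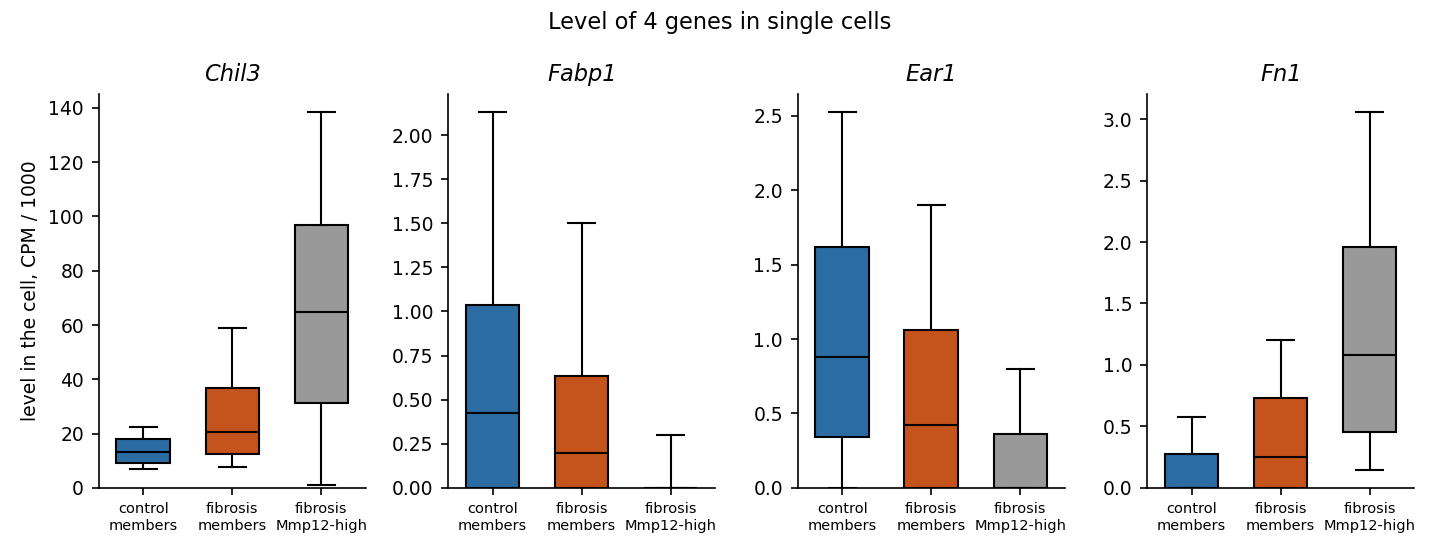
Level of Chil3, Fabp1, Ear1 and Fn1 in single cells, in CPM of the cell divided by 1000, for chosen control cells, chosen fibrosis cells and the fibrosis cells set aside for Mmp12. The line is the median, the box spans the 25th to 75th percentile and the whiskers the 10th to 90th percentile. Chosen fibrosis cells lie between the other sets for all 4 genes, with medians of 20489 CPM for Chil3, 198 for Fabp1, 422 for Ear1 and 250 for Fn1.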

How the data were processed

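Lung cells of 2 mice were profiled in 1 library each. The deposited values are counts of UMIs per gene and cell, not normalized, for 27998 genes. The authors made them with bcl2fastq and Cell Ranger 1.3 against mm10, per the submitters' processing notes. How cells were told from empty droplets is not given in the sources used here. The members and the 17 gene lists were chosen with earlier results of these data known. Cells were gated as stated in the report, and doublets were not removed. UMIs were summed per library and scaled to CPM, with exact Poisson 95% intervals, shares carry exact Clopper-Pearson intervals, and ratios carry exact conditional binomial intervals. Log2 ratios use 0.5 UMI added to each sum. Genes needed 20 UMIs over both libraries and were called at 2-fold. A count of 0 was bounded at 3 counts. Symbols on more than 1 row (56) were left out, and 3 of the 295 listed genes were therefore not analysed here.

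Reference ratios are medians over the classes, among B, T, NK, endothelial and AT2 cells and classical monocytes, in which the gene had 20 UMIs, and needed 2 classes. Genes were named by a fixed rule. It took the rule genes, 15 identity and injury genes, and per list the 3 genes with the largest smaller value of the raw and reference-subtracted ratio and its most abundant gene. Over all genes it took the 10 highest and 10 lowest by the same value. Other genes were named after their values were seen, as were Csf1, Ciita, Axl, Mertk, Tnf, Il18, Cd36, Ccl24 and the division by Fabp1, Arg1 and Fbp1. Calculations used Python 3.11.15, scipy 1.17.1 and scanpy 1.11.5, and the ratio step was tested on simulated data. There were 24 alternatives, of which 7 were added after the data had been seen. The values of 1 listed gene are not reported here.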

Additional observations from a re-analysis of the deposited data

Results flagged for a closer look

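Cells above the mitochondrial limit entered no comparison. In the control library 11 cells with more than 10% mitochondrial UMIs met the rest of the rule, and in the fibrosis library 17 did. These cells were singled out because they carry the signal of the chosen macrophages in data that the comparisons left aside.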

How the results depend on the processing

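With 1 mouse per group and UMI counting error as the only measured error, these values show how far the choice of cells and genes moves a difference, and not whether it would recur in other mice. Over 22 alternatives, 33 of 44 gene counts, 341 of 357 list medians and 20 of 30 member shares stayed within the limits set for them. Of 1766 values of named genes, 32 reversed and 208 moved. In the division by Fabp1, under 2 further settings chosen after seeing the data, 26 of 60 levels moved without each gene's highest cell and 22 of 60 without cells with at least 5% Scgb1a1. No paired analysis was possible, because each group was 1 mouse. The labels number the mouse of each group as 1 and state no pairing.

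The count of genes at least 2-fold higher (413) was 234 when the gate was run on cells thinned to 1000 UMIs. It was 242 without cells holding 3 markers of another class, among the classes listed above for this setting, which leave out AT2 cells. Other settings gave 267 in members with 0 Mmp12 UMIs and 225 in members with at least 7 rule genes. The count was 170 at a minimum of 50 UMIs, 2287 with no minimum and 950 at 1.5-fold. The count lower (152) was 67, 1300 and 653 under the last 3 of these and 306 with the reference classes subtracted. The member share was 8.61% and 11.8% at a minimum of 3 rule genes, 6.85% in the control at a mitochondrial limit of 5% (difference 3.68 points), 9.25% in the control at a common UMI floor (difference 1.21 points), 9.36% in the fibrosis library after thinning, and 6.89% and 8.51% at 7 rule genes (difference 1.62 points).

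Of the 13 alternative activation genes 8 had a reference ratio, and genes without one enter the next medians unchanged. With the reference classes subtracted, list medians were -0.73 for rule genes, -0.39 for identity genes, 0.38 for monocyte-derived genes, 0.19 for cholesterol synthesis, 0.16 for MHC class II and 0.69 for alternative activation. The signs of Mrc1 (-1.12), Lpl (-0.48), Mmp12 (-0.39), Pparg (0.17), Spp1 (-1.08), Retnla (-1.34), Lgals3 (0.37), Cebpb (-0.062), Scd1 (-0.18), Clec4n (-0.15) and Gapdh (0.018) reversed there. After thinning the rule genes' median was -0.052 and that of monocyte-derived genes 0.40, and Apoe (-0.15), Hmox1 (0.42), H2-DMb2 (-0.41), Hspa1b (0.78), Hspa1a (0.22) and Ltf (1.32) reversed. At 7 rule genes the median was -0.071, and Hmox1 (0.22), H2-DMb2 (-0.18), Hspa1b (0.33) and Hspa1a (0.12) reversed. In members with 0 Mmp12 UMIs the median was -0.083 and Hmgb2 was at 0.020. The alternative activation median was 0.97 and 1.73 at Mmp12 limits of 0.05% and 0.2%, 1.73 without cells holding markers of another class, and 1.65 without the 5 highest cells of each gene. That last setting put Hmox1 at 0.12, Ccl4 at 0.10, Rsad2 at 3.12 and Hspa1a at 0.044. The MHC class II median was 1.53 at 50 UMIs. Without cycling cells the cell cycle median was 0.36, and Ccl4 (0.56), Rsad2 (0.27) and Ifit1 (2.93) reversed. Ltf was at 1.05 with a minimum of 3 rule genes, Hmox1 at 0.12 with the 5% limit, and Apoe at -0.24 without the C1q-rich members. The causes were not tested.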
